A study of Mus musculus with 2 samples.

Results

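The complement genes described here are 8 of the 50768 features in the matrices, taken by symbol: *C1qa*, *C1qb* and *C1qc*, which encode the 3 chains of C1q, *C4b*, *C3* and *Cfb*, which encode proteins of the cascade, and *C3ar1* and *C5ar1*, which encode receptors for its fragments. All 8 were found in both libraries. The libraries hold single-cell RNA-seq of dissociated submandibular glands with the adjoining sublingual glands, 1 pooled library from NOD/ShiLtJ mice (spelled NOD/ShiltJ in the labels) and 1 from CD1 mice. The NOD strain is an inbred line that develops lymphocytic inflammation of the salivary glands, and CD1 is an outbred stock used as the control. All animals were untreated females of 20 weeks, pooled from 4 mice per strain by the study's methods and 3 by the labels. The cell suspensions were depleted of EpCAM-positive epithelium and Ter119-positive red cells and of dead cells, and the labels call the result stromal enriched. With 1 library per strain no test of the strains was possible, so every interval below is a 95% interval of counting error alone.

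Complement is a cascade of plasma and tissue proteins that mark microbes, dying cells and immune complexes. C1q is the recognition molecule of the classical pathway and is made mainly by macrophages. C4 carries the classical signal to C3, the central component, and factor B, the product of *Cfb*, joins with C3 to form the C3-cleaving enzyme of the alternative pathway. The released fragments C3a and C5a act on myeloid cells through the receptors encoded by *C3ar1* and *C5ar1*.

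Reads are counted as unique molecular identifiers (UMIs), and a level is the number of UMIs of a gene per 1000000 UMIs (CPM) summed over the cells of a class. Barcodes with at least 500 UMIs and 300 genes were kept, 6500 from NOD with a median of 5719.5 UMIs and 7014 from CD1 with a median of 6495. The libraries shared 18 of these barcodes (0.277% of NOD and 0.257% of CD1). Each barcode was given a lineage when at least 3 markers of a lineage were present with a lead of 2 over any other, and no complement gene was among the markers. Macrophage-like cells numbered 669 in NOD and 2838 in CD1, endothelial-like cells 1076 and 2941, and lymphocyte-like cells 4176 and 563. Fibroblast-like cells were rare despite the enrichment named in the labels, at 59 and 19. Barcodes with markers of several lineages (138 and 148) and with too few markers (317 and 424) were left out of the lineages. Empty droplets, whose UMIs come from RNA free in the suspension, were the barcodes of 10 to 100 UMIs.

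The lineages carried their defining markers. *Csf1r*, the receptor for the main macrophage growth factor, stood at 766 CPM in NOD and 966 CPM in CD1 macrophage-like cells and at 3.62 CPM and 0 CPM in fibroblast-like cells. *Pdgfra*, which marks fibroblasts, stood at 1189 CPM and 1029 CPM in the fibroblast-like cells and at 0.487 CPM and 0 CPM in the macrophage-like cells. The macrophage-like cells were shallower in NOD, at a median of 4161 UMIs against 7286 in CD1. In the fibroblast-like class 11 of the 19 CD1 cells and 15 of the 59 NOD cells had under 2500 UMIs.

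Promoter sequence was at hand from RefSeq (GRCm38.p6, an older build than the GRCm39 of the counts) for 5 of the 8 genes. The 150 bases before the transcription start are shown for *C1qb* and *C1qc*, neighbours on chromosome 4 whose transcripts kept a near-fixed proportion in the results below, for *C5ar1*, a macrophage gene that differed between the libraries, and for *C3*, whose sources were different. Capitals mark the letters AGGAAG, the core bound by the myeloid factor PU.1, and TTGCNNAA, a C/EBP core, on either strand, where N is any base.
C1qb, chr4:136886201-136886350, minus strand: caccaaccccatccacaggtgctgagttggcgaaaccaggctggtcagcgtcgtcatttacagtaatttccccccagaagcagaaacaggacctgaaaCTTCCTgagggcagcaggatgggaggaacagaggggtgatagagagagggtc
C1qc, chr4:136892915-136893064, minus strand: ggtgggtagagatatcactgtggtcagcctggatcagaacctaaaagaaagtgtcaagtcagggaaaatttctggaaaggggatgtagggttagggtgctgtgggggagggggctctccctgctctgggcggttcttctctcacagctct
C5ar1, chr7:16259339-16259488, minus strand: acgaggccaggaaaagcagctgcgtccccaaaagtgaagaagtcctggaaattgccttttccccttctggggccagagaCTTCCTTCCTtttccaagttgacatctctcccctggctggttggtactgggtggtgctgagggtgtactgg
C3, chr17:57228137-57228286, minus strand: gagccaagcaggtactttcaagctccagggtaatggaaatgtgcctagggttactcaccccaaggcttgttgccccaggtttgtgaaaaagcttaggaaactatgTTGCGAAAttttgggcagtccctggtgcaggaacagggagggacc

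The PU.1 core occurred once in the *C1qb* window, starting 52 bases before the transcription start, and in 2 overlapping copies in the *C5ar1* window, at 71 and 67 bases. The *C1qc*, *C3* and *C3ar1* windows did not hold these letters. The PU.1 core was present in 19.7% of 32851 promoter windows of the same length, so a match is common. The C/EBP core occurred in the *C3* window alone among the 5, at 45 bases before the start, and in 5.46% of all windows. The interferon-linked motifs TTCNNNGAA (GAS, 4.09% of windows) and GAAA repeated after any 2 bases (ISRE, 1.59%) were in none of the 5. The NF-kB core, GGGA and CC with any 4 bases between them (11.9% of windows) was in the *C1qc* window once and in the *C3* window 2 times, and the E-box CANNTG (47.7%) was in the *C1qb* and *C5ar1* windows.

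**Figure D1:**
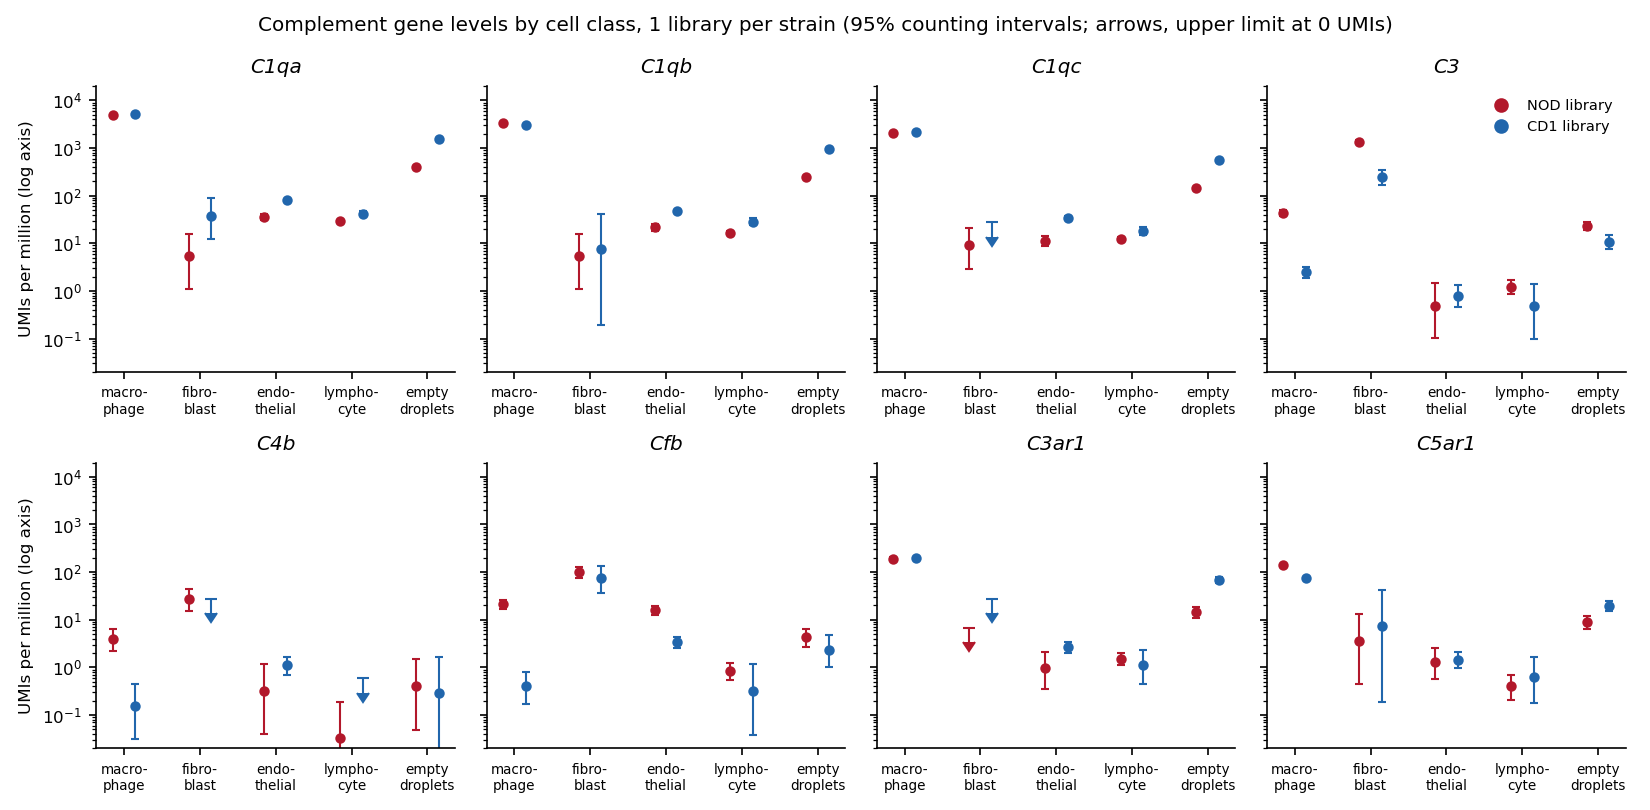
Level of each complement gene (CPM, log axis) in 4 lineages and in empty droplets, with NOD in red and CD1 in blue. Points are sums over 1 library, bars are 95% counting intervals (cut at the foot of the axis where they run below it), and arrows mark the upper limit where no UMI was found. The C1q chains and both receptors were highest in macrophage-like cells among these lineages, and *C3* was highest in fibroblast-like cells.

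C1q was the most abundant product of the group in macrophage-like cells and was close to equal between the strains there, 1.01-fold higher in CD1. The 3 chains together stood at 10246 CPM (10148 to 10344) in NOD and 10394 CPM (10349 to 10439) in CD1. The log2 ratio of NOD over CD1 was -0.02 (-0.04 to -0.01). That interval covers counting alone, and the direction turned under other treatments of the same cells, with values between -0.10 and 0.22. The single chains gave log2 ratios of -0.06 for *C1qa*, 0.09 for *C1qb* and -0.08 for *C1qc*. A macrophage-like cell held a median of 21.0 *C1qa* UMIs in NOD and 33.0 in CD1, and the NOD cells were the shallower.

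C1q came from macrophage-like cells in both strains. They held 90.1% (89.8 to 90.4) of the C1q UMIs of all kept NOD barcodes and 94.3% (94.2 to 94.4) of those in CD1, while being 10.3% and 40.5% of the barcodes. Over all kept barcodes C1q was lower in NOD, at 1075 CPM against 4443 CPM (log2 -2.05, -2.06 to -2.03), where the macrophage-like cells were also fewer. After each cell was thinned to 500 UMIs, to compare cells of unequal depth, 94.6% of macrophage-like cells in both libraries still held a C1q UMI. All 3 chains were detected together in 90.9% of NOD and 92.1% of CD1 macrophage-like cells before thinning, and in 47.4% and 46.8% after it.

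The chains kept close to the same proportions wherever they were counted. *C1qa*, *C1qb* and *C1qc* made up 47.8%, 32.0% and 20.2% of the C1q UMIs of NOD macrophage-like cells and 49.2%, 29.7% and 21.1% in CD1. In the empty droplets they made up 50.6%, 31.3% and 18.2% in NOD and 50.4%, 31.2% and 18.4% in CD1. The proportion of *C1qb* was thus 2 to 3 points apart between the strains in macrophage-like cells and equal within counting error in the empty droplets.

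Outside the macrophage-like class C1q was low. Endothelial-like cells had 68.2 CPM in NOD and 162 CPM in CD1 (log2 -1.25, -1.40 to -1.10), and lymphocyte-like cells had 57.6 CPM and 89.1 CPM (log2 -0.63, -0.77 to -0.49). The empty droplets of the same libraries had 789 CPM in NOD and 3052 CPM in CD1, which is the same order of the strains at higher levels. A few barcodes carried much of the signal. In NOD, 10 cells held 72.4% of the *C1qa* UMIs of the 1076 endothelial-like cells and 65.1% of those of the 4176 lymphocyte-like cells. In CD1, 10 cells held 34.3% of those of the 2941 endothelial-like cells and 77.1% of those of the 563 lymphocyte-like cells. Fibroblast-like cells held 11 C1q UMIs in NOD and 6 in CD1. From salivary secretory genes, free RNA was estimated at 17.2% of the UMIs of endothelial-like cells in NOD and 1.70% in CD1. In lymphocyte-like cells the estimates were 27.6% and 1.44%. Such shares of the 789 CPM in the NOD empty droplets would exceed the 68.2 CPM and 57.6 CPM of C1q found. The NOD estimates were thus too high for C1q, and the strains cannot be compared by them. The part of barcodes with more than 1 cell in these C1q UMIs was not tested.

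The comparison of C1q in macrophage-like cells depended on the depth of the cell. Among cells with under 2000 UMIs the level was 16439.8 CPM in NOD and 11804 CPM in CD1 (log2 0.48, 0.43 to 0.53). From 5000 up to 10000 UMIs the levels were 10699 CPM and 10754 CPM (log2 -0.01, -0.03 to 0.02), and from 10000 on they were 8868 CPM and 9891 CPM (log2 -0.16, -0.18 to -0.14). NOD was thus higher in the shallowest cells and lower in the deepest.

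**Figure D2:**
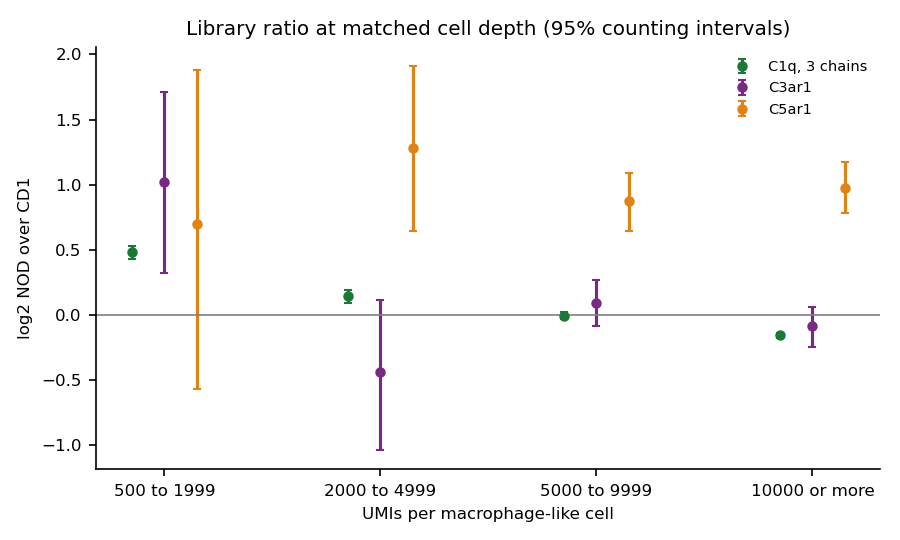
Log2 ratio of NOD over CD1 in macrophage-like cells, by the UMIs of the cell, for the C1q chains together, *C3ar1* and *C5ar1*. Points are ratios of summed UMIs and bars are 95% counting intervals. The C1q ratio passed from 0.48 in the shallowest cells to -0.16 in the deepest, that of *C3ar1* was 1.02 in the shallowest cells and between -0.44 and 0.09 in the others, and that of *C5ar1* lay between 0.70 and 1.28.

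*C3*, the central component, was highest in fibroblast-like cells of both strains and higher in NOD. The NOD fibroblast-like cells held 748 *C3* UMIs (1352 CPM, 1257 to 1453) and the CD1 cells 33 (246 CPM, 169 to 346), a 5.50-fold difference (log2 2.46, 1.96 to 3.01). *C3* was found in 43 of the 59 NOD cells (over all 59, median 4.00 UMIs, highest 83), and in 5 of the 19 CD1 cells (median 0, highest 23). The 2 strains overlapped, since cells without *C3* occurred in both, and a single CD1 cell held 69.7% of the CD1 UMIs. Without that cell the log2 ratio was 4.00.

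The difference in *C3* was also present among fibroblast-like cells of similar depth. With at least 5000 UMIs, 33 of 38 NOD cells held *C3* (median 10.0 UMIs, 1395 CPM) and 5 of 8 CD1 cells did (median 1.00 UMI, 274 CPM). The shallower cells, 21 in NOD and 11 in CD1, held 34 and 0 *C3* UMIs. Fibroblast marker UMIs were at 29038 CPM in NOD and 29242 CPM in CD1, and so did not move with *C3*. Clustering without the complement genes put all fibroblast-like cells in 1 cluster, together with 32 other cells in NOD and 81 in CD1, among them mural-like and epithelial-like cells. The *C3* ratio over that whole cluster (832 CPM and 70.8 CPM, log2 3.55) thus compared unlike mixtures. Its other cells held 90.2 CPM in NOD and 42.4 CPM in CD1 (35 UMIs each).

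**Figure D3:**
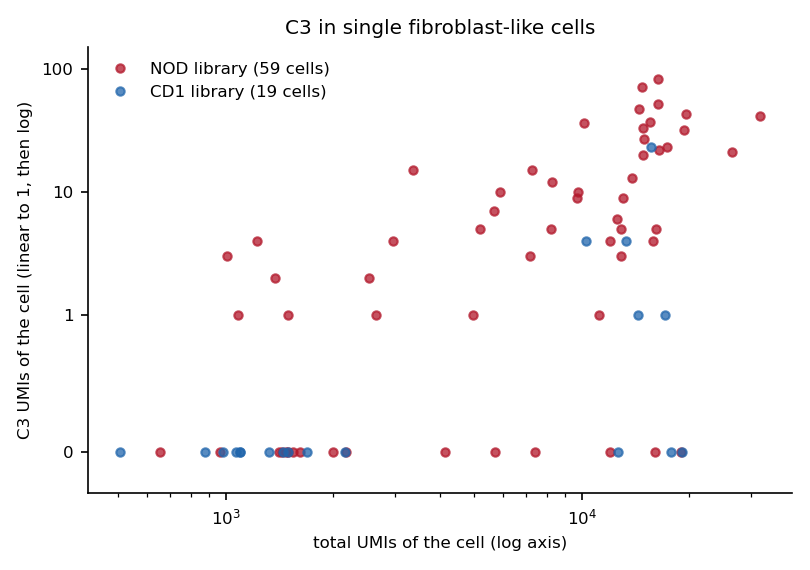
*C3* UMIs of each fibroblast-like cell (vertical axis, linear up to 1 and log above) against the total UMIs of the cell (log axis), with 59 NOD cells in red and 19 CD1 cells in blue. The highest NOD cell held 83 *C3* UMIs and the highest CD1 cell 23, and above 5000 UMIs only 8 CD1 cells were present.

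Macrophage-like cells also held *C3* UMIs, and there too the NOD level was higher. They held 178 *C3* UMIs in 38 of 669 NOD cells (43.4 CPM, 37.2 to 50.2) and 49 UMIs in 24 of 2838 CD1 cells (2.46 CPM, 1.82 to 3.25), a 17.6-fold difference (log2 4.14, 3.68 to 4.63). Empty droplets had 23.5 CPM of *C3* in NOD and 10.7 CPM in CD1, so the NOD macrophage-like level was above the free RNA and the CD1 level below it. The 38 NOD cells held no *Pdgfra* UMI, and 12 UMIs of all fibroblast markers. At 5000 UMIs or more these markers were nevertheless at 23.1 CPM in the NOD cells with *C3* against 6.14 CPM in those without it, and neutrophil markers at 147 CPM against 62.5 CPM. Their part in the result was not tested.

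The macrophage-like cells with *C3* were few and had less C1q than the others. Of the 38 NOD cells with *C3*, 27 also held a UMI of *Ccr2*, *Ly6c2*, *Plac8*, *Chil3* or *Vcan*, genes known from recruited monocytes and their progeny, against 16.0% of the NOD macrophage-like cells without *C3*. Their C1q level was 4654 CPM, against 11021 CPM in the cells without *C3*. In CD1 the levels were 7756 CPM in the 24 cells with *C3* and 10433 CPM in the others, and 9 of the 24 held a recruited marker. The NOD cells with *C3* were deeper than those without it, with a median of 13233 UMIs against 3598. At 5000 UMIs or more the recruited markers still occurred in 83.3% of NOD cells with *C3* and 21.4% of those without it. In CD1 the medians were 11395 and 7238 UMIs, and the shares at 5000 UMIs or more were 42.9% and 9.89%. Of the 178 NOD *C3* UMIs, 102 were in 25 cells that also held C1q and 76 in 13 cells that did not. In CD1 18 of the 24 cells with *C3* held C1q.

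Clustering, a split added after the values were seen, placed most of these cells apart from the other macrophage-like cells. A cluster of 124 NOD and 49 CD1 cells, in which 7 of 12 dendritic cell markers were raised, took in 31 of the 669 NOD macrophage-like cells (4.63%) and 26 of the 2838 in CD1 (0.916%). Those 31 NOD cells held 155 of the 178 *C3* UMIs and 70 of the 86 *Cfb* UMIs of the class. All 31 held a recruited-monocyte marker, with a median of 9 macrophage markers and 3 dendritic cell markers per cell, against 7 and 2 in the NOD macrophage clusters. The 31 were also deeper, at a median of 16245 UMIs against 3547. Detection of a marker rises with depth, so these counts are not matched. By the lineage rule a macrophage-like cell has more macrophage than dendritic cell markers. The marker medians therefore cannot show whether the 31 cells shared the raised dendritic cell markers of the cluster. In the macrophage-like cells of this cluster *C3* stood at 329 CPM (279 to 385) in NOD and 70.4 CPM (44.6 to 106) in CD1 (log2 2.22, 1.59 to 2.92), and C1q at 2479 CPM and 1466 CPM (log2 0.76). Over all cells of the cluster *C3* was 77.5 CPM and 38.0 CPM (log2 1.03, 0.43 to 1.68), and C1q was in the other order, at 538 CPM and 713 CPM (log2 -0.41, -0.56 to -0.25). In the macrophage clusters *C3* was 5.54 CPM in NOD and 1.28 CPM in CD1 (log2 2.11, 1.16 to 3.04), both below the empty droplets. The macrophage-like cells of the former cluster were thus a larger share of the NOD class and had more *C3* in NOD.

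**Figure D4:**
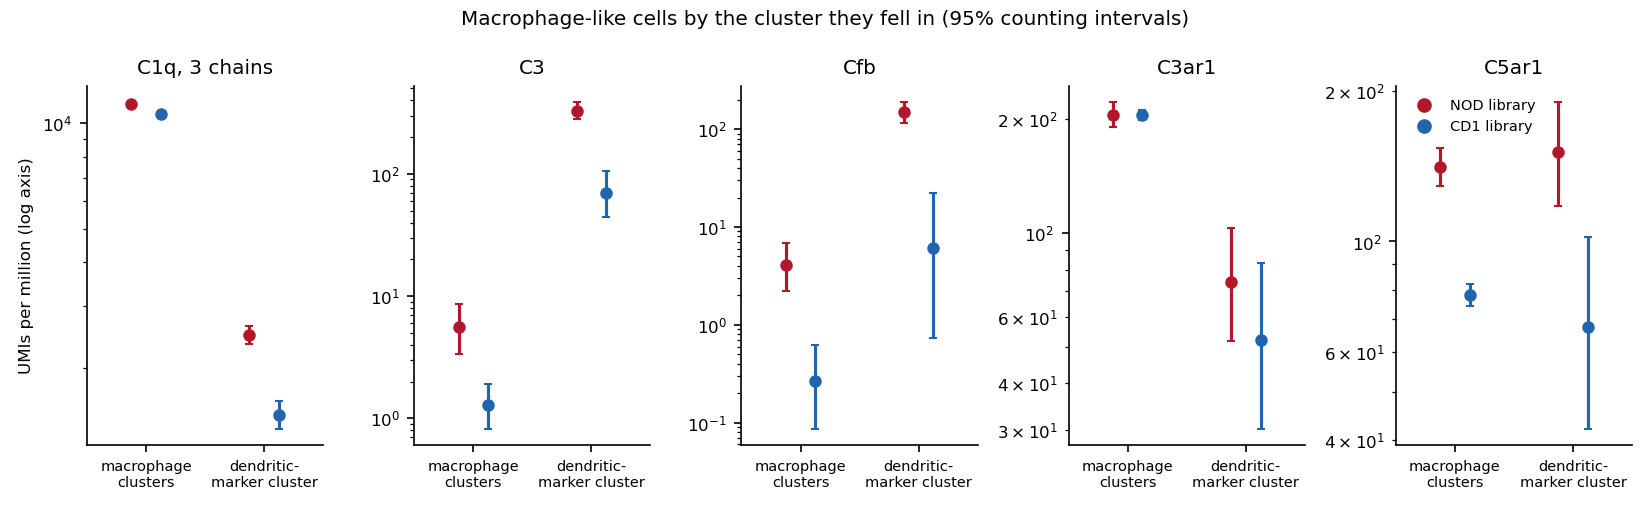
Levels (CPM, log axes that differ between panels) in macrophage-like cells that fell in macrophage clusters (611 NOD and 2719 CD1 cells) or in the cluster with raised dendritic cell markers (31 and 26 cells). Points are sums over 1 library with 95% counting intervals, NOD in red and CD1 in blue. In the second set C1q and *C3ar1* were lower and *C3* and *Cfb* higher than in the first, in both strains. The CD1 *Cfb* levels rest on few UMIs, 2 in 1 cell of the second set and 5 in the first.

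The sources of *C3* over all kept barcodes thus differed. In NOD, 748 of 1009 *C3* UMIs (74.1%, 71.3 to 76.8) lay in fibroblast-like cells, which were 0.908% of the barcodes, and 17.6% in macrophage-like cells. In CD1, with 124 *C3* UMIs in all, 39.5% (30.9 to 48.7) lay in macrophage-like and 26.6% (19.1 to 35.3) in fibroblast-like cells. A further 16 CD1 UMIs (12.9%) were in endothelial-like cells, 12 of them in 1 cell. Lymphocyte-like cells had 37 UMIs in NOD and 3 in CD1 (1.23 CPM and 0.483 CPM, log2 1.35, -0.31 to 3.69), below the empty droplets in both. Over all kept barcodes *C3* was 9.26-fold higher in NOD, at 23.2 CPM against 2.51 CPM.

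*Cfb*, which encodes factor B, was spread over more cell classes than *C3*. Endothelial-like cells held 97 UMIs in 77 of 1076 NOD cells (15.8 CPM, 12.8 to 19.3) and 67 UMIs in 55 of 2941 CD1 cells (3.34 CPM, 2.59 to 4.24), a 4.73-fold difference (log2 2.24, 1.78 to 2.71). No cell held more than 7 of these UMIs. The empty droplets stood at 4.29 CPM in NOD and 2.37 CPM in CD1, and the NOD endothelial-like level was above that range. Cells with a UMI of the venous markers *Ackr1*, *Selp*, *Sele*, *Vwf* or *Vcam1*, a list chosen after the values were seen, had 57.9 CPM in NOD and 16.1 CPM in CD1, against 11.8 CPM and 2.76 CPM in the others. The strains differed in both kinds of cell, by log2 1.85 (0.89 to 2.87) with and 2.09 (1.55 to 2.64) without a venous marker.

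In macrophage-like cells *Cfb* was 20.9 CPM in NOD (86 UMIs in 26 cells) and 0.401 CPM in CD1 (8 UMIs in 6 cells), which is log2 5.71 (4.66 to 6.96). One NOD cell held 26 of the 86 UMIs. Both *C3* and *Cfb* were present in 15 NOD macrophage-like cells, 14 of which held a recruited marker, and in 1 CD1 cell. Without a recruited marker the log2 ratio was 3.61, from 10 and 5 UMIs, and with lineages taken from clusters it was 2.79, from 16 and 12 UMIs. Fibroblast-like cells had the highest *Cfb* level and no clear difference, at 99.4 CPM (74.9 to 129) in NOD and 74.6 CPM (35.8 to 137) in CD1 (log2 0.42, -0.57 to 1.55). The whole fibroblast cluster, in which 81 of the 100 CD1 cells were not fibroblast-like, had 61.6 CPM and 14.6 CPM (log2 2.08).

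*C4b*, which encodes the classical pathway protein C4, was barely detected, with 37 UMIs in NOD and 26 in CD1 over all kept barcodes. In NOD 15 UMIs were in 8 fibroblast-like cells (27.1 CPM, 15.2 to 44.7) and 16 in 12 macrophage-like cells (3.90 CPM, 2.23 to 6.33). The CD1 fibroblast-like cells held 0, which allows up to 3 UMIs, and set against that floor the log2 ratio was 0.28. With the counting error of the NOD UMIs the lower end was -0.20, so a higher NOD level was not established. In CD1 macrophage-like cells 3 UMIs were found. Endothelial-like cells held 2 in NOD and 22 in CD1 (log2 -1.75, -4.89 to 0.27), and 21 of the 22 were in 1 CD1 cell. *C4b* has a near-identical copy, *C4a*, with 23 UMIs in NOD and 27 in CD1, and reads that fit both copies can be lost or misplaced, so these counts are uncertain.

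The receptor genes were nearly confined to macrophage-like cells, which held 90.2% (88.1 to 92.1) of the *C3ar1* UMIs in NOD and 94.5% (93.8 to 95.2) in CD1, and 89.2% (86.5 to 91.5) and 93.2% (91.8 to 94.3) of the *C5ar1* UMIs. *C3ar1* was close to equal between the strains, at 189 CPM (176 to 203) in NOD and 199.8 CPM (194 to 206) in CD1 (log2 -0.08, -0.19 to 0.03). It was found in 282 of 669 NOD and 1443 of 2838 CD1 macrophage-like cells. At 500 UMIs per cell the shares were 7.32% and 7.26%, so the lower share in NOD before thinning went with the shallower cells. By depth the log2 ratio was 1.02 (0.32 to 1.71, 31 and 47 UMIs) in cells with under 2000 UMIs, -0.44 (-1.04 to 0.11) from 2000 up to 5000, 0.09 (-0.09 to 0.27) from 5000 up to 10000 and -0.09 (-0.25 to 0.06) above that. Over all kept barcodes *C3ar1* was lower in NOD, at 19.8 CPM against 85.2 CPM (log2 -2.11). Neither library had a *C3ar1* UMI in a fibroblast-like cell, which allows up to 3 UMIs in each.

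*C5ar1* was 1.81-fold higher in NOD macrophage-like cells, at 139 CPM (127 to 150.5) against 76.7 CPM (72.9 to 80.7), which is log2 0.85 (0.71 to 0.99). It was present in 217 of 669 NOD and 773 of 2838 CD1 cells, and both strains had cells with none. The highest cell and the next held 24 and 18 UMIs in NOD and 17 and 14 in CD1. At matched depth the log2 ratio was 0.70 (-0.57 to 1.88) in cells with under 2000 UMIs, 1.28 (0.64 to 1.91) from 2000 up to 5000, 0.87 (0.64 to 1.09) from 5000 up to 10000 and 0.97 (0.78 to 1.17) above that. The difference was also present in cells without a recruited marker, at 148 CPM and 77.0 CPM (log2 0.94, 0.78 to 1.10), and in the macrophage clusters (log2 0.85, 0.70 to 1.00). After thinning to 500 UMIs it was found in 4.04% (2.68 to 5.82) and 3.03% (2.43 to 3.73) of cells, whose intervals overlap. Over all kept barcodes the order was the opposite, at 14.7 CPM in NOD and 33.2 CPM in CD1 (log2 -1.18, -1.31 to -1.04).

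Before thinning the 2 receptors were often in the same cells. Both were detected in 154 NOD macrophage-like cells (23.0%) and 566 in CD1 (19.9%), against products of the single shares of 13.7% and 13.8%, a difference that deeper cells alone can raise. At 500 UMIs per cell both were in 0.897% of NOD cells (6 cells) and 0.282% of CD1 cells (8 cells). The products there were 0.296% and 0.220%. *C5ar1* was also present in neutrophil-like cells, known for this receptor, with 10 UMIs in 5 NOD cells and 21 UMIs in 3 CD1 cells (643 CPM and 1644 CPM), where *C3ar1* had none. NOD mice are known to lack circulating C5, the precursor of the ligand. Its gene *Hc* had 10 UMIs in NOD and 5 in CD1 over all kept barcodes.

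The share of all genes that differ this much puts these ratios in context. Of genes with at least 20 UMIs over both libraries, 13.7% differed by 2-fold or more in either direction in macrophage-like cells, 23.4% in fibroblast-like, 12.3% in endothelial-like and 19.8% in lymphocyte-like cells. In macrophage-like cells 2 of the 7 complement genes with that many UMIs were past 2-fold, *C3* and *Cfb*, both higher in NOD. In fibroblast-like cells 1 of 2 was, *C3*. In endothelial-like cells 6 of 7 were, *Cfb* higher and the 3 C1q chains, *C4b* and *C3ar1* lower. C1q and *C3ar1* were highest in macrophage-like cells, and 21 of the 22 CD1 *C4b* UMIs were in 1 cell. In lymphocyte-like cells *C3* and *Cfb* of 6 were, on 37 against 3 and 25 against 2 UMIs.

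The other complement genes, a list of 46, did not move together. In macrophage-like cells 17 had at least 20 UMIs, of which 5 were 2-fold or more higher in NOD, 1 lower and 11 neither. Of all genes with that many UMIs over both libraries, 7.60% were higher and 6.12% lower. Against a median log2 ratio of 0.08 over genes with at least 20 UMIs in each library, that of the 17 was 0.19. The 17 needed 20 UMIs only over both libraries, so the medians are of unlike sets. The highest ratios were those of *Cd93* (21.2 CPM and 3.61 CPM, log2 2.55), a receptor of phagocytes and endothelium, *Colec12*, a scavenger receptor (24.8 CPM and 5.02 CPM, log2 2.31), and *Cfp*, which encodes properdin, the stabiliser of the alternative convertase (26.8 CPM and 7.23 CPM, log2 1.89). Among the lowest were *Cd59a*, an inhibitor of the membrane attack complex, with 3 and 32 UMIs (log2 -1.14, -3.49 to 0.54) and *Csmd1* with 2 and 19 UMIs (log2 -0.97, -4.12 to 1.08). The lectin pathway protease gene *Masp1* stood at 64.8 CPM and 47.9 CPM (log2 0.44), and *Calr*, the C1q-binding chaperone calreticulin, at 785 CPM and 516 CPM (log2 0.60).

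Fibroblast-like cells were the highest class for several genes of the early classical pathway. In these cells 14 of the 46 had at least 20 UMIs, 3 higher in NOD, 1 lower and 10 neither. Of all genes with that many UMIs, 18.4% were higher and 4.98% lower. Against a median log2 ratio of -0.08 over genes with at least 20 UMIs in each library, that of the 14 was 0.35. The 14 needed 20 UMIs only over both libraries, so the medians are of unlike sets. *C1ra* and *C1s1*, which encode the proteases that bind C1q, stood at 642 CPM in NOD against 231 CPM in CD1 (log2 1.47, 0.94 to 2.05) and 889 CPM against 432 CPM (log2 1.04, 0.65 to 1.46). *Csmd1* had 335 UMIs in NOD and 1 in CD1 (log2 6.34, 3.86 to 11.65). *C2* was at 193 CPM and 194 CPM. *Serping1*, which encodes the inhibitor of C1r and C1s, was abundant (1149.7 CPM and 671 CPM, log2 0.78, 0.46 to 1.11). *Calr* stood at 839 CPM and 917 CPM (log2 -0.13), and *Vtn* and *C1rb* at log2 -0.04 each. *Colec12* was lower in NOD, at 797 CPM against 1693 CPM (log2 -1.09, -1.32 to -0.85), while in macrophage-like cells it was higher in NOD. The difference between the classes was not tested.

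In endothelial-like cells 25 of the 46 had at least 20 UMIs, 4 higher, 4 lower and 17 neither. Among all genes with that many UMIs, 12.3% differed by 2-fold or more in either direction, and 4.28% were lower. The median log2 ratio of the 25 was 0.34, against 0.07 over genes with at least 20 UMIs in each library. Since the 25 needed 20 UMIs only over both libraries, the medians are of unlike sets. *C1s1* (22 and 11 UMIs, log2 2.71), the complement receptor gene *Cr2* (19 and 10 UMIs, log2 2.63) and *Cd55* (31 and 37 UMIs, log2 1.45), which encodes an inhibitor of the convertases, had the highest ratios on few UMIs. *Itgam* (3 and 79 UMIs, log2 -3.01) and *Itgax* (4 and 74 UMIs, log2 -2.50), leukocyte integrins that bind C3 fragments, and *Csmd1* (8 and 178 UMIs, log2 -2.77) had the lowest. In macrophage-like cells *Itgam* stood at 83.1 CPM and 99.4 CPM and *Itgax* at 121 CPM and 83.7 CPM. The macrophage marker *Csf1r* was at 6.02 CPM in NOD and 20.2 CPM in CD1 endothelial-like cells. B cell-like cells held 2263 of the 2415 NOD *Cr2* UMIs. The part of RNA from other cells in these counts was not tested. *Cd93* was at 297 CPM in NOD and 486 CPM in CD1 (log2 -0.71, -0.78 to -0.64), *Cr1l*, a regulator that acts on C3b, at 149.6 CPM and 146 CPM (log2 0.03), *Colec12* at 34.0 CPM and 23.1 CPM and *Cfp* at 3.09 CPM and 2.44 CPM.

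In lymphocyte-like cells 19 of the 46 had at least 20 UMIs, 5 higher, 4 lower and 10 neither. Of all genes with that many UMIs, 14.0% were higher and 5.85% lower. Against a median log2 ratio of 0.01 over genes with at least 20 UMIs in each library, that of the 19 was 0.06. The 19 needed 20 UMIs only over both libraries, so the medians are of unlike sets. *Cr2*, the C3d receptor of B cells, was at 78.1 CPM in NOD and 2.90 CPM in CD1 (log2 4.75, 4.09 to 5.51), and *Cd55* at 142 CPM and 32.3 CPM (log2 2.13, 1.93 to 2.34). B cell-like cells numbered 902 in NOD and 9 in CD1. They held 2263 of the 2415 NOD *Cr2* UMIs and 3360 of the 4428 NOD *Cd55* UMIs. T cell-like cells numbered 2425 and 166, and NK cell-like cells 677 and 370. The lymphocyte-like ratios thus compared unlike mixtures. *Cd59b* had 19 and 1 UMIs (log2 1.97, -0.68 to 7.35). The lowest ratios were *C2* (12 and 13 UMIs, log2 -2.39), *Cd93* (log2 -1.90) and *Itgax* (15.5 CPM and 56.6 CPM, log2 -1.87). *Calr* (log2 0.05), *Masp2* (log2 -0.11) and *Cfp* (log2 0.68) differed by under 2-fold. No UMI of *Cfd*, which encodes the protease that cuts factor B, of *C8b* or of *Mbl1* was found in a kept barcode, and *C6*, *C7* and *C9* of the membrane attack complex had 12 or fewer each in either library. These genes, *Hc* and *C4a* were chosen after their values were seen.

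Genes whose levels were most like the members were ranked over 13 sums (a class in a library with at least 30 cells) and 13319 genes (those with at least 200 UMIs, and the members) by Pearson's r of log2(CPM + 1). The sums share libraries and cell classes, so r is a description only. C1q was most like *C3ar1* (r = 0.980), *Lilra5* (0.980) and *Dcstamp* (0.979), and *C3ar1* most like *Dcstamp* (0.982), *C1qa* (0.981) and *Il1b* (0.978). *C5ar1* was most like *Masp1* (0.982), *Gm57647* (0.974) and *Gm32267* (0.971). *C3* was most like *Oaf* (0.951), *Gsn* (0.925) and *Dennd2a* (0.917), and *C4b* like *Abca8a* (0.933), *Ogn* (0.908) and *Nr1h3* (0.907). The 19 CD1 fibroblast-like cells were too few to enter these sums.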

How the data were processed

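Per the file headers and the submitters' processing notes, the deposited files hold unscaled UMI counts that the authors made with Cell Ranger 8.0.0 against GRCm39, for every barcode. The notes also name Seurat 5.0.1 and R 4.3.1, and no Seurat output was used here. The matrices held 52790319 UMIs in NOD and 56483149 in CD1. The members, gene lists and settings were chosen with earlier results of these data known.

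Kept barcodes had at least 500 UMIs and 300 genes, with no mitochondrial limit (37 mitochondrial genes, median shares of 5.62% and 5.06%). Lineages came from 13 marker lists. No doublet caller was applied; barcodes with markers of several lineages were left out, and removal of the highest Scrublet scores (338 NOD and 394 CD1 barcodes, 0.8% per 1000) was an alternative. Its own threshold marked 79 and 159 barcodes.

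Levels are class sums as CPM. Intervals are at 95% and cover counting error only: Poisson (exact) for levels, binomial given the total for ratios and Clopper-Pearson for shares. Genes entered the counts of 2-fold differences from 20 UMIs over both libraries; ratios from fewer UMIs are given with their UMIs, and a 0 was taken as a floor of 3 counts. Other named genes were the 3 with the highest and the 3 with the lowest ratios in each lineage and the gene of each role with most UMIs; 1 of these is not reported here. For clustering, 2000 variable genes without complement genes, 30 components and 15 neighbours were used with the Leiden method at a resolution of 0.5 (scanpy 1.11.5, Python 3.11.15, scipy 1.17.1), which gave 21 clusters. The ratios were run on simulated Poisson counts, which do not hold the bunching of UMIs in a few cells. The lineage rule was run on cells drawn, at a fixed depth, from classes that the same rule had made. That run therefore could not test the rule. Promoters and motifs came from RefSeq on GRCm38.p6, and *C1qa*, *C4b* and *Cfb* had no entry.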

Additional observations from a re-analysis of the deposited data

Results flagged for a closer look

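The strains stood in opposite order between cell classes for *C1qb*. Its log2 ratio of NOD over CD1 was 0.09 in macrophage-like cells, -1.12 in endothelial-like cells and -0.78 in lymphocyte-like cells, each with a counting interval on 1 side of 0, and the difference between the classes was not tested. The macrophage-like ratio was -0.06 (-0.10 to -0.02) in cells from 10000 UMIs on and 0.01 with median-of-ratios scaling, so the opposite order did not hold in the deepest cells. The empty droplets had 247 CPM of *C1qb* in NOD and 952 CPM in CD1, which is the order of the endothelial-like and lymphocyte-like cells.

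C1q was also counted in barcodes that no comparison used. Those with more UMIs than the empty droplets and under 500 had 640.3 CPM of the 3 chains in NOD and 1462 CPM in CD1, above the limit that a count of 0 allows and below the 789 CPM and 3052 CPM of the empty droplets.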

How the results depend on the processing

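No paired analysis was possible because each strain has 1 library. The C1q log2 ratio in macrophage-like cells changed sign: it was 0.01 with the highest Scrublet scores removed, 0.06 with lineages from clusters, 0.21 with each cell at the same weight, 0.22 after thinning and 0.15 without cells that held a recruited marker (added after seeing the data). It was -0.05 at 1000 UMIs and 500 genes, -0.05 at 10% mitochondrial UMIs and -0.10 with median-of-ratios scaling. *C1qa* gave 0.02, 0.18 and 0.19 and *C1qc* 0.01, 0.10 and 0.15 with clusters, equal weight and thinning.

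*C5ar1* in macrophage-like cells was 0.69 with equal weight and 0.55 after thinning, and *C3ar1* lay between -0.16 and 0.01. *C3* in fibroblast-like cells was 3.55 with clusters (81 of 100 CD1 cells not fibroblast-like), 3.23 with equal weight, 4.00 without 1 CD1 cell and at least 1.82 after thinning, where CD1 had 0 UMIs. *C3* in macrophage-like cells was 2.18 with clusters, 4.89 after thinning (7 and 1 UMIs) and 1.78 without recruited markers, and in lymphocyte-like cells it was -2.15 against the floor after thinning (5 and 0 UMIs). *Cfb* in macrophage-like cells was 2.79 with clusters. *C4b* in fibroblast-like cells, set against the floor, was -0.40 (15 and 0 UMIs) after Scrublet removal, where 11 CD1 cells were left. *Cfb* in endothelial-like cells lay between 2.07 and 2.59.

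The share of C1q in macrophage-like cells was 90.4%, 97.3%, 91.4% and 87.9% in NOD, and 94.7%, 98.5%, 94.9% and 92.7% in CD1, under the deeper minimum, Scrublet removal, and the looser and stricter marker rules. It was 94.5% at 10% mitochondrial UMIs and 95% with clusters in CD1. The *C3* share of fibroblast-like cells was 79.2% after Scrublet removal and 77.6% with clusters in NOD, and 54.8% with clusters in CD1. That of macrophage-like cells was 2.08% in NOD and 19.4% in CD1 with clusters, and 54.7% in CD1 after Scrublet removal. That of endothelial-like cells was 1.29% in NOD with the looser rule, and 1.16% in CD1 after Scrublet removal and 0.806% with clusters. That of NOD lymphocyte-like cells was 2.24% and 2.08% under those 2 settings. The cause of these changes was not tested.

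Subtraction of the empty-droplet profile gave no value for macrophage-like cells, since the salivary secretory RNA of the NOD cells was not below that of the empty droplets. With 1 library per strain, depth limits the rare classes: 19 CD1 fibroblast-like cells and *C4b* at 37 and 26 UMIs.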
